A study of Rattus norvegicus with 39 samples.

Results

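The 18 cysteine tRNA genes in the deposited table of 402 rat genomic tRNA genes were followed in cauda epididymal sperm, gene by gene and as a sum, across 4 doses of EGME (ethylene glycol monomethyl ether), an industrial solvent known to injure spermatocytes. They were taken as every row whose name carries Cys after the tRNA number, a rule that uses no measured value. All 18 carry the anticodon GCA, and the row names place 10 of them on chromosome 4, 5 on chromosome 10 and 1 each on chromosomes 6, 8 and 14. Rows with identical counts in every library were treated as 1, which left 13 distinct rows. The samples were sperm of wild-type Fischer males aged 11 to 12 weeks, each gavaged once a day for 5 days and sampled after 5 weeks without exposure. The control group received the water vehicle (EGME0, n = 10), and the treated groups received EGME at 50 mg/kg/d (EGME50, n = 10), 60 mg/kg/d (EGME60, n = 9) or 75 mg/kg/d (EGME75, n = 10). Each library held the sperm RNA of a single male.

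Cysteine tRNA delivers cysteine to the ribosome at UGC and UGU codons. A mammalian genome holds many near-identical copies of each tRNA gene, and a short read often fits several of them. Mature sperm carry few intact tRNAs and many fragments cut from them, so reads on a tRNA gene in sperm mostly stand for fragments, which are known to be acquired or changed as sperm pass through the epididymis. Fragments from the 5' ends of cysteine and alanine tRNAs begin with a run of G and are known for binding translation factors. These points are background, and the tables do not separate fragments from whole tRNAs.

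The tRNA table held 134381 to 12140012 counts per library (median 6168164), and the distinct cysteine rows held 138 to 12435 of them (median 4868). The GCA anticodon ranked 37 of 51 by mean share, with 0.186% of the counts on distinct tRNA rows. The 2 shallowest libraries, EGME75 replicate 24 (138 cysteine counts) and EGME0 replicate 33 (169 counts), were sequenced on the same chip. Intervals and errors from so few counts are wide, and a value of a few counts in these libraries moves by a large step per read. The labels give 1 male per library, so the spread between libraries is the spread between males plus that of library making.

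Several cysteine rows shared their counts. trna7731 and trna7735 on chromosome 4 had identical counts in all 39 libraries and are given here as trna7731. trna4742, trna8526 and trna8527 on chromosome 10 and trna1731 on chromosome 4 formed a second set, given as trna4742, and trna7701 on chromosome 6 and trna3547 on chromosome 8 made another, given as trna7701. The members of a set cannot be told apart in these data. Sets were also tied to each other. The counts of trna8562 (chromosome 10) equalled the counts of trna8571 (chromosome 10) plus those of trna7701 exactly in 29 of 39 libraries and within 1 count in all 39. Those of trna4742 equalled trna1750 (chromosome 4) plus trna7701 exactly in 21 of 39 libraries and within 1 count in all 39. trna4742 and trna8562 are therefore not readings independent of trna1750, trna8571 and trna7701, and a sum over the 13 distinct rows holds the counts of trna1750 and trna8571 in 2 rows and those of trna7701 in 3. How reads that fit several genes were counted is not given in the sources used here.

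**Figure D1:**
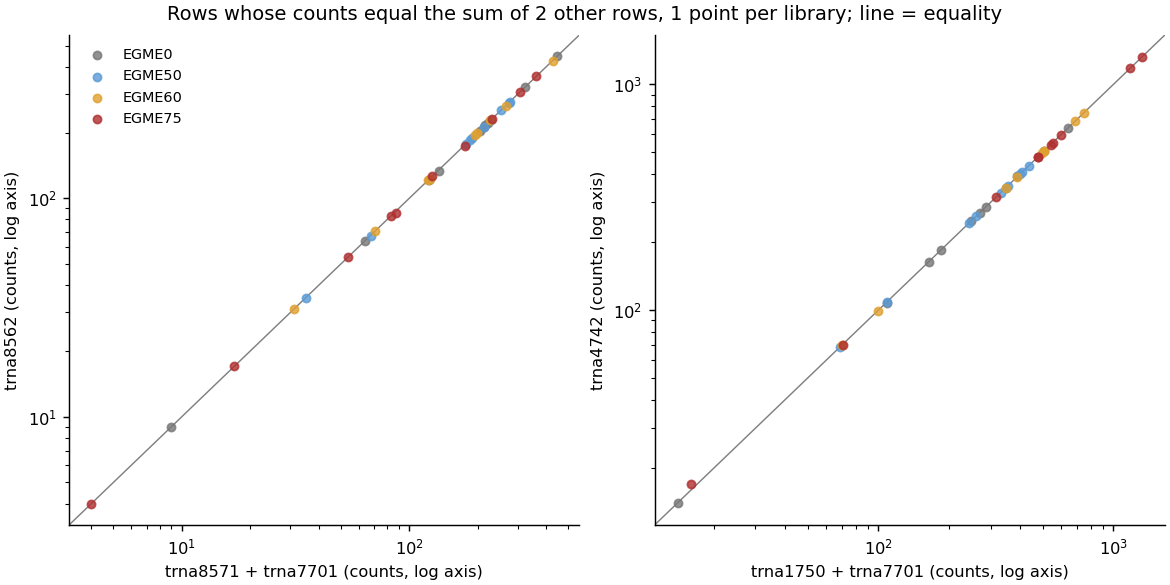
Counts per library of trna8562 against trna8571 plus trna7701 (left) and of trna4742 against trna1750 plus trna7701 (right), on log axes, with 1 point per library coloured by dose group and a line of equality. All 39 points in each panel lie on the line to within 1 count.

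The sum of the distinct cysteine rows did not pass the test at any dose. In CPM (counts scaled to a common library size over the distinct tRNA rows, with trimmed mean of M-values factors), the sum had its lowest value, median and highest value at 777, 1604 and 2813.5 in EGME0. The same 3 values were 1019.6, 1870.3 and 2707 in EGME50, 324 (replicate 6), 1803 and 2545 in EGME60, and 894, 1820.4 and 2713 in EGME75. The 4 groups overlapped over nearly their whole ranges. The means were 1740.4 ± 712 (SD, n = 10), 1824 ± 451 (n = 10), 1733 ± 759 (n = 9) and 1943 ± 508 CPM (n = 10). By edgeR's quasi-likelihood test, with Benjamini-Hochberg adjustment over 47 anticodon sums, the log2 fold change against EGME0 was 0.07 at EGME50 (95% interval -0.42 to 0.55, adjusted p = 0.904). It was -0.01 at EGME60 (-0.50 to 0.49, adjusted p = 0.987) and 0.16 at EGME75 (-0.33 to 0.64, adjusted p = 0.637). The slope over 75 mg/kg/d was 0.11 (-0.33 to 0.56, adjusted p = 0.730), and of all anticodon sums 0%, 31.9%, 53.2% and 48.9% passed in these 4 tests. Without the 2 rows that equal sums of others, the EGME75 value was 0.07 (adjusted p = 0.879, edgeR). The step from EGME50 to EGME60 (-0.07, adjusted p = 0.919, edgeR) and that from EGME60 to EGME75 (0.16, adjusted p = 0.642) did not pass either, where 10.6% and 34% of all sums did.

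The call on the sum depended on the scaling at EGME75. Scaled by library totals alone, the sum was 0.62 higher on the log2 scale (adjusted p = 0.0336, edgeR), a setting that also moved the median of all 47 sums from 0.04 to 0.46. In that setting 28 of the 47 sums passed as higher and 10 as lower. As a plain share of distinct tRNA counts, cysteine made up 0.154% ± 0.0617 (SD, n = 10) in EGME0, 0.167% ± 0.0395 in EGME50, 0.186% ± 0.0903 in EGME60 (n = 9) and 0.237% ± 0.0717 in EGME75. The EGME75 share exceeded the control share by 0.0835 percentage points (two-sided permutation test, adjusted p = 0.0399 over the 3 doses, n = 10 against 10). This permutation test was made for cysteine alone, so no rate over all anticodons stands beside it. The groups overlapped, with 4 of 10 EGME75 males above the highest control. The differences at EGME50 (0.0132 points, permutation p = 0.573) and EGME60 (0.0325 points, exact permutation p = 0.3648) did not pass. With every one of the 18 rows counted, the EGME75 difference was 0.0616 points (permutation, adjusted p = 0.0568), and without the 2 rows that equal sums of others it was 0.0618 points (permutation, adjusted p = 0.0989). The call on the share therefore depends on which rows are counted. It also lost its call (adjusted p from 0.0525 to 0.0795, differences of 0.0707 to 0.0844 points) without any 1 of EGME0 replicates 2, 10, 17, 18, 26, 33 and 34 or EGME75 replicates 7, 15, 24, 31, 32 and 39.

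The make-up of the cysteine counts differed between control and EGME75. trna7731 gave the largest part, 48.9% ± 4.96 (SD, n = 10) of the cysteine counts in EGME0 and 55.7% ± 6.31 in EGME75. trna1744 (chromosome 4), second in control at 22% ± 2.30, held 18.2% ± 1.79 in EGME50, 14.2% ± 3.22 in EGME60 and 11.4% ± 2.31 in EGME75. trna1750 went from 2.27% ± 1.16 through 3.05% ± 1.53 and 5.70% ± 3.38 to 10.6% ± 3.28. In these shares no EGME75 male overlapped any control for 2 of the 9 tested rows, trna1744 (17.8% to 26.2% in control, 8.44% to 15.4% at EGME75) and trna1750 (1.05% to 4.76% against 5.89% to 16.2%). Of all 186 tRNA rows in families with several tested rows, 8.6% were separated this way in the share of their own anticodon. With the 2 rows that equal sums left out, both rows still did not overlap (trna1744 at 20.5% to 29.2% against 10.3% to 18.5%, trna1750 at 1.15% to 5.58% against 6.76% to 20.7%). The shares need no scaling between libraries, but within 1 family a higher share of a row lowers the others.

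**Figure D2:**
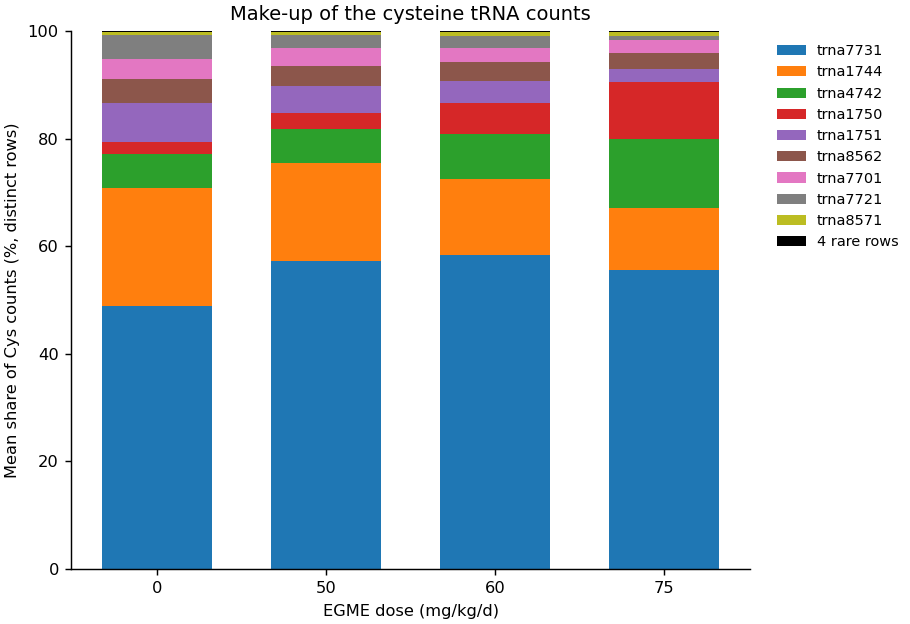
Mean share of the cysteine counts (percent, distinct rows) held by each row in the 4 dose groups (mg/kg/d), as stacked bars with the 4 rarest rows pooled in black at the top. trna1744 narrows from 22% to 11.4% and trna1750 widens from 2.27% to 10.6% between EGME0 and EGME75, while trna7731 holds 48.9% to 58.3%.

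Of the 13 distinct rows, 9 had enough counts to be tested. At EGME75, 5 of the 9 passed (edgeR, adjusted over 190 distinct tRNA rows), 3 higher (trna1750, trna4742 and trna8571) and 2 lower (trna7721 and trna1744, both on chromosome 4). The background was high: 64.7% of all tested rows passed in that comparison, 36.8% higher and 27.9% lower, so the count of 5 is not above the table's own rate. The median log2 fold change was -0.17 for the 9 cysteine rows and 0.16 for all rows. The cysteine values ran from -2.14 to 2.77. At EGME60, 2 of 9 passed, both higher, against 21.6% of all rows. At EGME50, 0 of 9 passed in edgeR against 0% of all rows, and 0 passed in DESeq2 and limma-voom. For the slope on dose, 4 of 9 passed, 3 higher and 1 lower, against 61.1% of all rows (37.9% higher, 23.2% lower). In the step from EGME50 to EGME60, 0 of 9 passed in edgeR against 0% of all rows, with 1 of 9 at an unadjusted p below 0.05 beside 49 of all 190.

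trna1750 was the cysteine row with the highest fold change at every dose. In EGME0 its lowest, median and highest CPM were 22.5, 29.6 and 48.8, and in EGME50 they were 27.8, 48.0 and 83.5. In EGME60 they were 29, 74.2 and 184, and in EGME75 103, 229.9 and 369.7. All 10 EGME75 males lay above the highest control, as did 7 of 9 at EGME60 and 5 of 10 at EGME50. The log2 fold change was 2.77 ± 0.28 (SE, adjusted p = 2.75e-10, edgeR) at EGME75 and 1.5 ± 0.27 (adjusted p = 1.79e-04) at EGME60. At EGME50 it was 0.70 ± 0.26 and did not pass after adjustment (p = 0.0111, adjusted p = 0.421, edgeR). It was the only cysteine row with an unadjusted p below 0.05 at that dose, as were 15 of all 190. The step from EGME60 to EGME75 was itself called, at 1.28 ± 0.27 (adjusted p = 0.00253, edgeR), as it was for trna4742 (0.95 ± 0.23, adjusted p = 0.00388). These 2 of 9 compare with 32.1% of all rows for that step, and both calls missed the threshold with the sequencing chip as a block (adjusted p = 0.0627 and 0.181).

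trna4742, the set of 4 genes on chromosomes 10 and 4, ran at 63.1, 83.1 and 148 CPM (lowest, median, highest) in EGME0 and at 78.5, 104 and 144.5 in EGME50. It reached 40.6, 120.1 and 232 in EGME60 and 120.1, 278 and 417 in EGME75. At EGME75, 9 of 10 males lay above the highest control, and the log2 fold change was 1.49 ± 0.23 (SE, adjusted p = 9.20e-07, edgeR). Since its counts are those of trna1750 plus trna7701, and trna7701 was not higher, its rise is not a reading independent of that of trna1750. The EGME60 change of 0.53 ± 0.23 had an adjusted p of 0.0720.

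trna8571 was scarce, with 1 to 46 counts per library in EGME0 and 2 to 100 in EGME75. Its CPM ran at 3.97, 6.39 and 9.51 (lowest, median, highest) in EGME0, 2.79, 8.82 and 11.8 in EGME50, 6.37, 10.6 and 18.9 in EGME60, and 9.77, 13.6 and 40.1 in EGME75. The EGME75 and control males did not overlap. It and trna1750 were the 2 of 9 tested cysteine rows with no overlap in CPM at EGME75, against 8.42% of all tested rows. The log2 fold change was 1.07 ± 0.23 (SE, adjusted p = 9.41e-05, edgeR) at EGME75 and 0.74 ± 0.22 (adjusted p = 0.0133) at EGME60. The highest value, 40.1 CPM in replicate 24, stood on 2 counts, and without that library the EGME75 change was 0.79 (adjusted p = 0.00429). Leaving out that library also lowered every other tested cysteine row, such as trna4742 (1.49 to 1.22) and trna1744 (-0.64 to -0.88). The distance of trna8571 from the change of its whole anticodon family, tested below, was 0.70 with and without that library. How much of the drop to 0.79 came from the value on 2 counts was not tested. The EGME60 call was lost (0.46 to 0.48, adjusted p from 0.112 to 0.145) without any 1 of EGME50 replicate 36, EGME60 replicate 38 or EGME75 replicates 7, 24, 31 and 40.

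trna7721 fell furthest. Its lowest, median and highest CPM were 4.51, 81.7 and 155 in EGME0, 0, 40.1 and 147 in EGME50, 3.06, 38.6 and 94.6 in EGME60, and 0, 13.9 and 33.1 in EGME75. Control males already spread widely, and all 10 EGME75 males lay below the control median while 1 lay below the lowest control. The 1 EGME75 male at 0 counts was replicate 24, where a count of 0 says little at that depth. The log2 fold change at EGME75 was -2.14 ± 0.56 (SE, adjusted p = 8.93e-04, edgeR) and was -2.34 (adjusted p = 6.47e-04) without replicate 24. At EGME60 it was -0.98 ± 0.53 (adjusted p = 0.156) and at EGME50 -0.64 ± 0.51 (adjusted p = 0.871).

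trna1744 and trna1751, both on chromosome 4, had lower medians at EGME75 than in control. trna1744 ran at 135, 339.5 and 584 CPM (lowest, median, highest) in EGME0, 176, 351 and 508 in EGME50, 55.7, 276 and 487 in EGME60 and 136, 239.9 and 372 in EGME75, with 9 of 10 EGME75 males below the control median. Its log2 fold change at EGME75, -0.64 ± 0.29 (SE, adjusted p = 0.0469, edgeR), passed narrowly. That call was lost (adjusted p from 0.0502 to 0.0998, changes of -0.66 to -0.54) without any 1 of EGME0 replicates 1, 9, 17, 25 and 34, EGME50 replicates 3 and 28 or EGME75 replicates 8, 16, 23, 32 and 39. It was also lost in 4 of 10 other settings. These were the chip as a block (-0.69, adjusted p = 0.0827, edgeR), library totals alone (-0.39, adjusted p = 0.236, edgeR), the tRNA total as a covariate, and limma-voom. trna1751 ran at 14.2, 99.8 and 239.7 CPM in EGME0, 10.3, 83.2 and 203 in EGME50, 2.90, 72.6 and 224 in EGME60, and 0 (replicate 24), 52.8 and 99.8 in EGME75, where all 10 males lay below the control median. Its change of -1.03 ± 0.49 (adjusted p = 0.0619, edgeR) did not pass. It passed (adjusted p from 0.0185 to 0.0487, changes of -1.44 to -1.03) without any 1 of EGME0 replicates 26 and 34, EGME50 replicates 11 and 36, EGME60 replicates 6 and 38 or EGME75 replicates 7, 24, 31 and 40. It also passed in 5 of 10 other settings (-1.44 to -1.10, adjusted p from 0.0127 to 0.0488, edgeR or DESeq2).

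**Figure D3:**
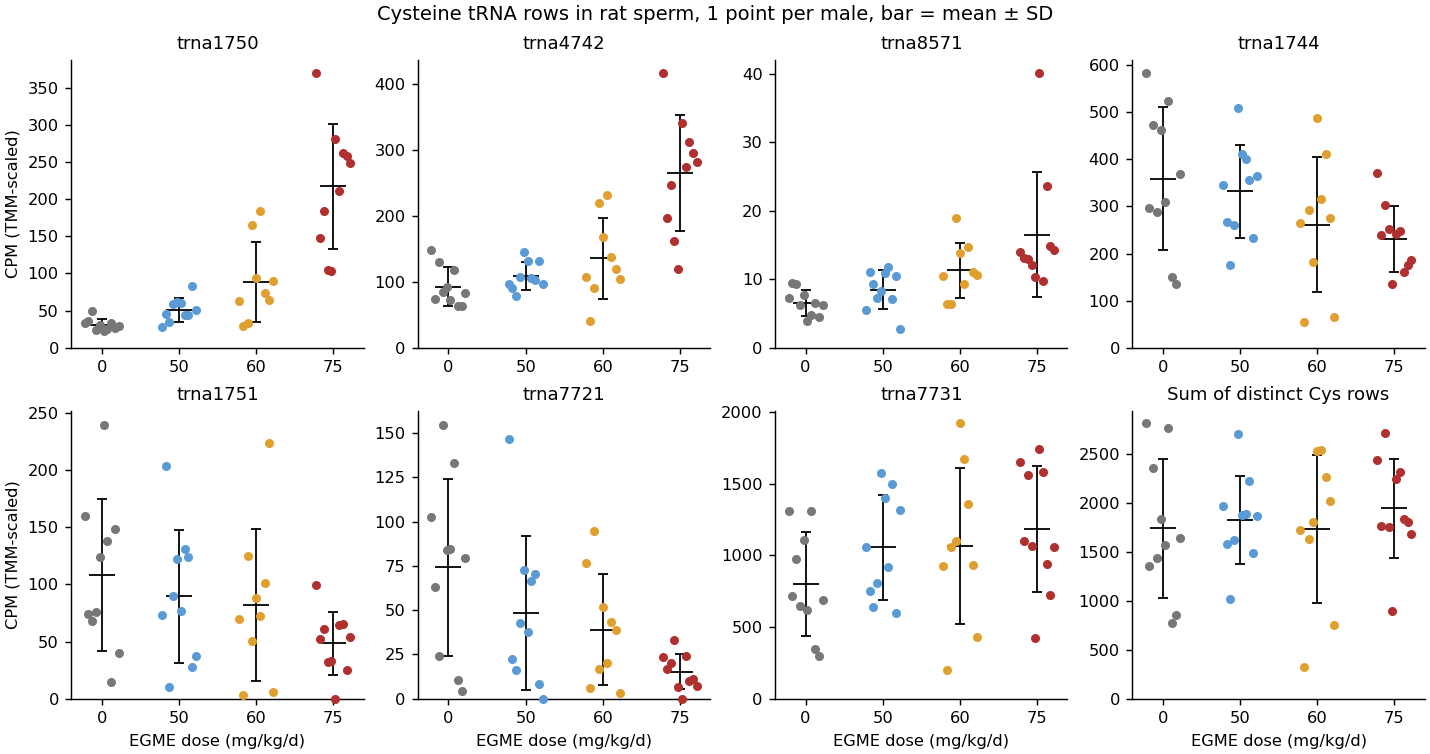
CPM of 7 cysteine rows and of the sum in each of the 39 males by EGME dose (mg/kg/d), with the group mean and SD as bars and each vertical axis starting at 0. trna1750 has all EGME75 males at 103 CPM or more against a control maximum of 48.8, trna7721 has all EGME75 males at 33.1 CPM or less, and the sum overlaps between all groups.

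The 3 other tested rows did not pass at any of the 3 doses. trna7731, which carries most cysteine counts, ran at 297, 701 and 1313 CPM (lowest, median, highest) in EGME0, 600.4, 991 and 1573 in EGME50, 197, 1057 and 1922 in EGME60, and 424, 1081 and 1746 in EGME75. The 4 groups overlapped, with a log2 fold change of 0.55 ± 0.29 (SE, adjusted p = 0.0971, edgeR) at EGME75. It passed with library totals alone (0.80, adjusted p = 0.0173) and without EGME75 replicate 23 (0.65, adjusted p = 0.0490). trna8562 ran at 37.9, 63.0 and 122 CPM in EGME0 and at 29.2, 65.7 and 80.3 in EGME75 (-0.17 ± 0.23, adjusted p = 0.509). It adds trna8571, which rose, to trna7701, whose change at EGME75 was -0.42 ± 0.26 (adjusted p = 0.152). trna7701 ran at 31.4, 57.0 and 115 CPM in control and at 18.9, 47.9 and 62.9 at EGME75. It passed (adjusted p from 0.0189 to 0.0482, changes of -0.72 to -0.65) without any 1 of EGME50 replicate 36, EGME60 replicate 38 or EGME75 replicates 7, 24, 31 and 40, and in 3 of 10 other settings (-0.77 to -0.65, adjusted p from 0.0139 to 0.0305, edgeR).

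The 4 rows left out for low counts were trna1748, trna7730 and trna5896 on chromosome 4 and trna5625 on chromosome 14. trna1748 had 152 counts in all, in 22 of 39 libraries, and trna7730 had 140 counts in 23 libraries. trna5625 had 38 counts in 10 libraries, and trna5896 had 3 counts, all in EGME50 replicate 3. Together they held well under 1% of the cysteine counts, and a change in them was not detectable at this depth.

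**Figure D4:**
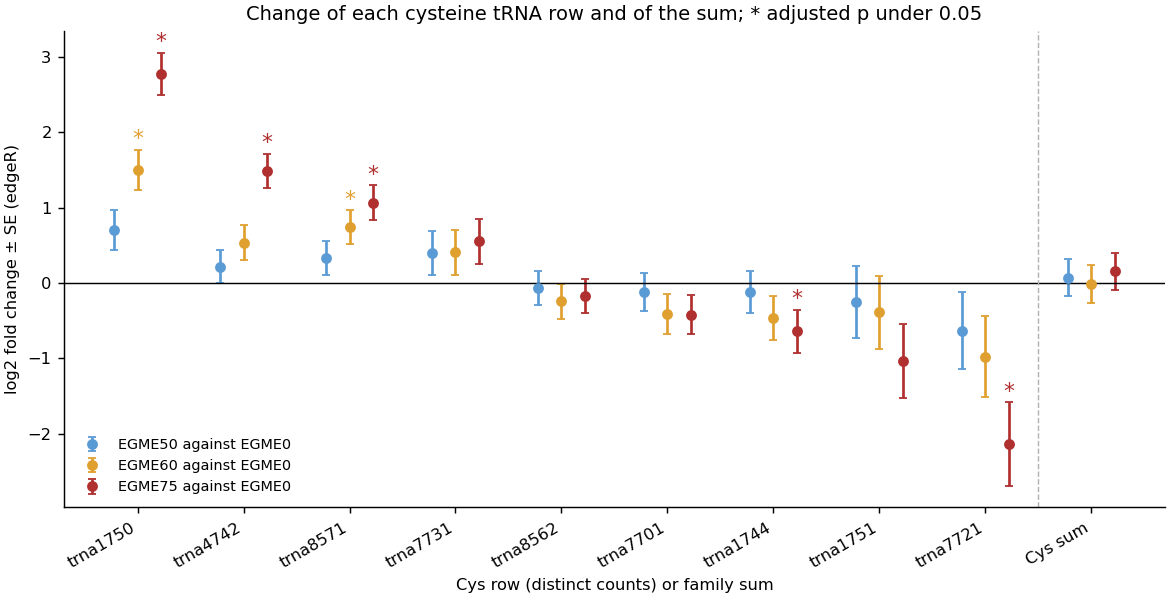
Log2 fold change (± SE, edgeR) against EGME0 of the 9 tested cysteine rows and of the cysteine sum at EGME50, EGME60 and EGME75, with rows ordered by their EGME75 value and an asterisk where the adjusted p was under 0.05. Row values at EGME75 run from 2.77 for trna1750 to -2.14 for trna7721, with the sum at 0.16.

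The parting of single copies from the family was tested directly, as the difference between a row's log2 fold change and that of its whole anticodon family in the same fit (edgeR's diffSpliceDGE, adjusted over 186 rows in all families). This difference does not depend on the scaling between libraries. The family change in that fit was that of the summed counts of the 9 tested rows, 0.37 at EGME75. It was 0.16 in the fit of anticodon sums, which had its own scaling factors. At EGME75, 5 of 9 cysteine rows parted from it, 2 above and 3 below, against 21% of all rows so tested (10.2% above, 10.8% below). The median distance from the family was 1.01 on the log2 scale for the cysteine rows and 0.21 for all rows. trna1750 stood 2.41 above its family (adjusted p = 5.12e-09), second of 186 from the top, and trna4742 stood 1.12 above (adjusted p = 0.00537). trna7721 stood 2.51 below (adjusted p = 5.22e-09), the lowest of all 186, trna1751 1.40 below (adjusted p = 6.37e-04) and trna1744 1.01 below (adjusted p = 0.0110). trna1751 thus parted from the family although its own change did not pass, and trna8571, whose own change passed, did not part from it (0.70, adjusted p = 0.248). trna7701 (-0.79, adjusted p = 0.0913), trna8562 (-0.54, adjusted p = 0.334) and trna7731 (0.18, adjusted p = 0.914) were not told from the family. trna7731 held 48.9% of the cysteine counts in EGME0 and 55.7% in EGME75. It was therefore compared largely with its own counts, and this test says little about it.

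The parting was seen at lower dose for trna1750 alone among the tested cysteine rows. At EGME60 it stood 1.35 above the family (adjusted p = 0.0129, edgeR's diffSpliceDGE), 1 of 9 cysteine rows against 1.61% of all rows. That call was lost (adjusted p from 0.0530 to 0.0642) without EGME60 replicate 14 (1.19), replicate 22 (1.22) or replicate 38 (1.24), and with the chip as a block (1.14, adjusted p = 0.301). At EGME50 no row of any family parted at an adjusted p below 0.05, and among cysteine rows only trna7721 had an unadjusted p below that level (p = 0.0175, 0.81 below the family). For the slope, the same 5 rows parted as at EGME75 (17.7% of all rows), trna1750 by 2.20, trna4742 by 0.93, trna1744 by -0.91, trna1751 by -1.15 and trna7721 by -2.04. With the chip as a block, 2 of the 5 slope calls remained, and trna4742 (0.80, adjusted p = 0.163), trna1744 (-0.82, adjusted p = 0.146) and trna1751 (-0.94, adjusted p = 0.116) did not pass. The slope call of trna1751 was also lost without EGME0 replicate 18 (-0.91, adjusted p = 0.0562). Over all settings other than leaving out a library, the slope call was lost in 2 of 8 for trna4742 and in 3 of 9 for trna1744. At EGME75 the call of trna1744 against the family was lost in 3 of 9 such settings (adjusted p from 0.0551 to 0.0776). The chip block was among them (-0.93, adjusted p = 0.0776). With the 2 rows that equal sums of others left out, 3 of the 7 remaining tested rows parted at EGME75, trna1750 (2.52), trna1751 (-1.28) and trna7721 (-2.39), while trna1744 stood at -0.92 (adjusted p = 0.0586).

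The directions were also read within sequencing chips. In 6 chips that held both an EGME0 and an EGME75 library, trna1750 and trna8571 were higher at EGME75 in all 6 and trna4742 in 5. trna7721 and trna1751 were higher in 0 of 6 and trna1744 in 1 of 6, and the cysteine sum was higher in 4. Among the 6 is the chip of the 2 shallowest libraries. There trna7721 had 1 count in EGME0 replicate 33 and 0 in EGME75 replicate 24, which says little about its direction.

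Among 43 anticodon families with at least 2 tested rows, the cysteine rows had the widest range of fold changes at EGME75, 4.91 on the log2 scale from the lowest to the highest row. GluTTC followed at 3.30, AsnGTT at 2.49 and ThrAGT at 2.36. A range widens with the number of rows, and the cysteine family has 9. The 1 family with more, AlaAGC with 10 tested rows, had a range of 2.16. No test of this ranking was made.

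**Figure D5:**
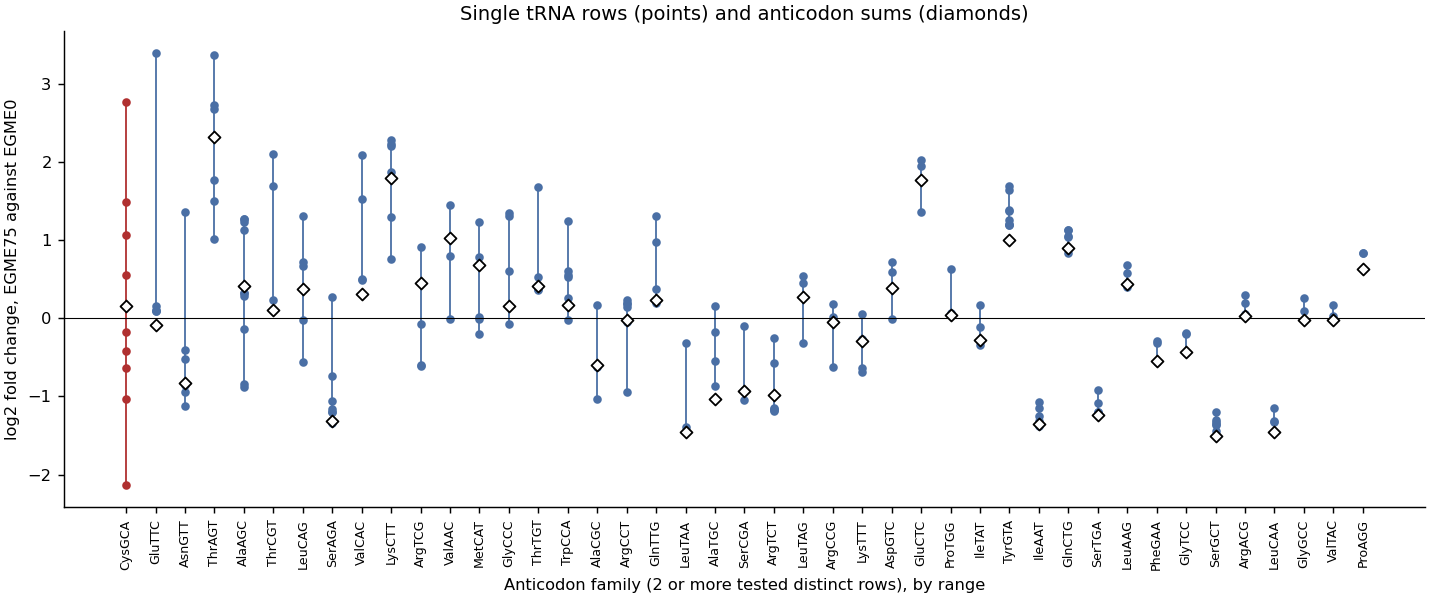
Log2 fold change at EGME75 against EGME0 of each tested tRNA row (points joined by a line) and of the anticodon sum (diamonds, scaled in a separate fit) in 43 families, ordered by the range of the rows, with CysGCA in red at the left. The cysteine rows run from -2.14 to 2.77 around a sum at 0.16, while the families at the right hold rows close together.

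The anticodon sums most like the cysteine sum across the 39 libraries, by Pearson's r of log2 CPM over 45 compared anticodons, were AlaAGC (r = 0.83), GlnTTG (r = 0.74) and ValTAC (r = 0.71). The libraries share depth and dose in this comparison, so the values are a description. AlaAGC, like the cysteine sum, did not pass at EGME75 (log2 fold change 0.41 ± 0.28, SE, adjusted p = 0.213, edgeR). Of the 4 tested alanine anticodons, 3 fell at EGME75, where 29.8% of all sums fell: AlaTGC (-1.04, adjusted p = 0.00349, edgeR), AlaCGC (-0.60, adjusted p = 0.00377) and AlaGGC (-1.58, adjusted p = 0.00394). AlaGGC, with a mean of 8.21 counts per library, was not in the list of 3 named by rule and was added after its values were seen. The median was -0.60 for the list of 3, -0.82 for all 4 and 0.04 over all 47 sums. Of 6 anticodons known as sources of abundant sperm tRNA fragments, 3 rose at EGME75, where 23.4% of all sums rose, GluCTC (1.77), LysCTT (1.79) and HisGTG (0.83), and GlyGCC (-0.02), GluTTC (-0.08) and ValCAC (0.31) did not pass. Their median was 0.57.

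MicroRNAs that mark other cell types had different levels in control and EGME75 libraries, which was read from ranges with no test. Libraries had 1098 to 38208 miRNA counts in EGME0 and 139 to 8633 in EGME75, so the shares of the shallowest libraries rest on few counts. As a share of miRNA counts, the 5 germ cell miRNAs (of the miR-34b, miR-34c and miR-449a families) had a median of 26.3% in EGME0 (range 19.8% to 33.1%) and 13.3% in EGME75 (6.47% to 22.1%). The 5 epithelial miRNAs had 0.872% (0.625% to 1.29%) and 2.49% (1.81% to 4.77%). The 6 of 7 blood cell miRNAs in the table had 0.114% (0% to 0.343%) and 0.788% (0.248% to 4.82%), with miR-144-3p at 0 in all libraries of EGME0, EGME50 and EGME75. The 4 muscle miRNAs had 1.67% (0.954% to 3.27%) and 3.70% (1.12% to 9.80%), with miR-1-3p at 0 in all treated groups. The medians did not all follow the dose: the epithelial median was 1.64% in EGME50 and 1.42% in EGME60, and the blood cell median was 0.837% in EGME60. Their part in the changes of the cysteine rows was not tested. In these bulk preparations, fewer cells of a type and less RNA per cell cannot be told apart.

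A second deposited table, of RNAcentral entries, held 21 entries named tRNA-Cys, of which 17 had counts. Their summed depth was far lower than that of the tRNA genes, with group medians of 712.5 counts in EGME0 and 242 in EGME75. At EGME75, 4 of 10 tested entries were lower and 0 higher (edgeR, TMM, adjusted over 2757 entries), against 37.8% of all entries called, 19.8% higher and 18% lower. The 4 lower entries are close to 1 reading: their totals were 3576 to 3582 counts, and they differed by at most 2 counts in any library and were equal in 29 of 39. A further 2 tested entries had the same total (973 counts) and the same values in every fit. The 10 tested entries are therefore fewer than 10 separate readings. The log2 fold changes of the 10 ran from -1.24 to -0.61, with a median of -0.97 beside -0.62 for all entries. The median of all entries moved to -1.38 with relative log expression factors and to -1.32 with totals alone, where 10 and 8 of the 10 were called lower against 49.5% and 34.8% of all entries, so the number of calls depends on the scaling. None of the 10 tested entries had a fold change above 0 at EGME75 under these 3 scalings. The gene row most like each entry over the 39 libraries was trna7701, trna1744 or trna7721 (Pearson's r of 0.52 to 0.75), and not trna1750.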

How the data were processed

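Small RNA reads of 39 rat sperm libraries were analysed from the deposited counts: the authors deposited raw sense-strand counts per tRNA gene, mature miRNA, noncoding transcript and RNAcentral entry. Per the labels' protocols, each library was made from 10 ng of RNA with an Ion kit. Sequencing used 13 chips, with 3 libraries on each. The submitters' processing notes name FastQC, Bowtie and DESeq2 without role or version. The aligner settings and the counting of reads that fit several genes are not given in the sources used here. The tables name assembly Rnor_6.0, for which no genome was at hand, so no coordinates or sequences are printed.

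Here, rows of 1 anticodon with identical counts were merged (402 to 242 rows), and counts were tested with edgeR 4.0.16 (R 4.3.3; TMM factors, filterByExpr by group, robust quasi-likelihood, two-sided) over all 39 libraries, as gene rows and as anticodon sums. Benjamini-Hochberg adjustment ran over every tested row, with a threshold of 0.05. diffSpliceDGE tested each row against its anticodon family. Slopes are log2 changes over 75 mg/kg/d. The common biological coefficient of variation was 0.364 for gene rows and 0.325 for sums. Shares were compared with 100000 permutations, or exactly where a group had 9 males. The RNAcentral entries were fitted with the same model, without merging identical entries.

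On simulated counts for EGME75 against EGME0, the gene fit (189 rows) recovered 100% of changes of 1 and of 2 on the log2 scale. The test against the family (109 rows) recovered 60% and 77.8%, with 2 of 90 unchanged rows called. Those 90 rows came from families with no changed copy, so wrong calls beside a changed copy were not measured. The fit of anticodon sums (46 rows) recovered 66.7% and 100%, with 1 of 34 unchanged sums called. The RNAcentral fit (2757 entries) recovered 1.19% and 40.7%. The simulated rows were drawn independently, with the same spread for every row of a fit, no shared reads and no chip effect. The rates may therefore be too high for rows with wide errors, such as trna1751 (SE 0.49 at EGME75) and trna7721 (SE 0.56), beside trna4742 (SE 0.23).

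Named rows followed a rule: the 5 rows with the largest mean share of cysteine counts, the 3 highest and 3 lowest fold changes at EGME75, and the rows furthest from the family in each direction, among rows averaging 10 or more counts per library. The members and lists were chosen with earlier results of these data known. Alternatives were other scalings (limma 3.58.1, DESeq2 1.42.0), filters, a chip block, a depth covariate, all rows kept and each library left out. Python 3.11.15, numpy 2.4.6, pandas 2.3.3, scipy 1.17.1 and matplotlib 3.10.9 were used.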

Additional observations from a re-analysis of the deposited data

Results flagged for a closer look

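Within groups, 40 sets of male values (the cysteine share and the CPM of the 9 tested rows, in each of the 4 dose groups) were searched for a male far from the others by Dixon's ratio, which chance alone meets in about 1 in 20 groups, and 2 were found. For trna8571 the highest EGME75 male, replicate 24, stood at 40.1 CPM with the next at 23.6, and this value rests on 2 counts in the shallowest library. For trna7721 the highest EGME50 male, replicate 3, stood at 147 CPM with the next at 72.6.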

How the results depend on the processing

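Males were not paired by replicate number, because no replicate number is shared between dose groups. Chips that held libraries of several doses were fitted as a block instead. Values are log2 fold changes of the cysteine sum, counts of cysteine rows, or share differences in percentage points. The sum at EGME60 changed sign with relative log expression factors (0.000251), library totals alone (0.28), no filter (0.0328), the chip as a block (0.0827), every row kept (0.13), DESeq2 (0.000783) and each anticodon by its row with the most counts (0.15), and ran from -0.10 to 0.14 with each library left out. At EGME75 it was called with totals alone (0.62). The sum at EGME50 was -0.0116 without the 2 shallowest libraries, a setting added after the data were seen, and ran from -0.0206 to 0.17 with each library left out. The step from EGME50 to EGME60 was 0.16 with totals alone, 0.0699 with the chip block and from -0.16 to 0.0658 with each library left out, and the step from EGME60 to EGME75 was -0.0339 with the chip block. Rows called at EGME60 numbered 1 with every row kept, 1 without the 2 rows that equal sums (also added later) and 1 to 3 with each library left out, and rows called for the slope 8 with every row kept. Rows apart from the family at EGME60 numbered 0 with the chip block, 2 with every row kept and 0 to 2 with each library left out. Without the 2 rows that equal sums they numbered 3 at EGME75 and 3 for the slope, and with the chip block 2 for the slope. Leaving those 2 rows out took trna4742 from the count. It also cost trna1744 its call (adjusted p = 0.0586 at EGME75 and 0.0748 for the slope, edgeR's diffSpliceDGE). The share difference at EGME75 was 0.0616 with every row kept, 0.0618 without the 2 rows that equal sums, 0.0799 without the 2 largest anticodons (adjusted p = 0.245, permutation), 0.65 as a log2 ratio (adjusted p = 0.0747, permutation) and 0.0707 to 0.101 with each library left out. Of 33 results on single rows under 308 further settings, 2 changed sign, trna8562 at EGME75 with totals alone (0.0790) and trna7731 against the family with every row kept (-0.0162). The median change of all gene rows at EGME75, 0.16, lay between -0.13 and 0.19 with each library left out and at 0.39 with totals alone, where the calls were 69.6% higher against 56.9%, and 46.3%, 50.0% and 47.2% with no filter, every row kept and the 2 sum rows left out. The cause of these changes was not tested. Depth limits the 4 rare rows and the 2 shallowest libraries.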
